A study of Homo sapiens with 5 samples.

Results

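The genes described here encode the nuclear pore complex and the soluble machinery that moves cargo through it: nucleoporins, importins, exportins, regulators of the GTPase Ran and the mRNA export receptor. The rule that chose them uses gene symbols and no measured value, although it was written with earlier results of these data known, and 52 of the 6309 genes in the authors' deposited table matched. The cells were HL-60, an established human promyelocytic leukaemia line, labelled wild type. One group received decitabine at 100 nM at the start and after 24 and 48 hours, and the other received the solvent DMSO; both were lysed at 72 hours. Decitabine is a deoxycytidine analogue that is built into DNA and traps DNA methyltransferases. Per the labels, total RNA was sequenced in 2 libraries for each treatment, and the ribosome-protected fragments in 1 library that pools the samples, all from a single cell line. The table held all 7 promyelocytic marker genes looked up, among them the granule genes MPO and ELANE, and none of 8 erythroid and lymphoid markers. The rule by which genes entered the table is not known, so a missing gene was not shown to be silent.

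Every value below is a change in translation efficiency, that is, in ribosome-protected fragments relative to total RNA of the same gene, with decitabine against DMSO. The authors' deposited table gives 1 coefficient per gene with its p-value, and no value for a single library, so neither levels nor replicate values can be shown and the depth is unknown. The coefficient is read as a natural log, in which 0 is no change; its log base is not stated. Each error is the standard error that the deposited p-value implies (implied SE), and each interval is the 95% interval built from it. The labels do not say whether the duplicate wells came from separate cultures, so the p-values may measure technical spread only. The title of the pooled fragment library does not say how its reads were assigned to treatments or replicates. The number of fragment replicates behind each coefficient is therefore not known here. A change in translation efficiency cannot be told apart here into more fragments or less RNA.

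As background, the nuclear pore complex is a channel through the nuclear envelope. Outer and inner rings of scaffold nucleoporins, anchored by transmembrane proteins, hold flexible nucleoporins rich in phenylalanine-glycine (FG) repeats that fill the passage. Importins and exportins bind cargo and cross this barrier, and Ran, loaded with GTP in the nucleus and with GDP in the cytoplasm, sets the direction by making importins let go and exportins hold on.

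By the authors' deposited table, none of the 52 genes passed at an adjusted p below 0.05, in either direction. Over all genes 0.808% passed, 0.634% as higher with drug and 0.174% as lower. Without adjustment 2 of the 52, NUP50 and XPO5, had a p below 0.05, which is 3.85% of them against 10.3% of all genes. After the coefficients were centred on the median of all genes, again none passed after adjustment, against 0.586% of all genes, and only NUP50 had an unadjusted p below 0.05, against 7.94% of all genes. The lowest adjusted p that the authors' deposited table gives for any of them was 0.191, for NUP50, and after centring it was 0.589, again for NUP50.

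The precision of these genes is given beside their calls. The median implied SE was 0.16 for these genes and 0.25 for all genes, and 31 of the 52 were among the most precise 20% of the table, those with an implied SE up to 0.17. In that precise 20%, 21.9% of all genes had an unadjusted p below 0.05, and 2 of the 31 pore and transport genes did. A gene needed a coefficient of at least 3.55 times its implied SE to pass. For these genes that meant a change of 1.3-fold for NUP210, the best measured, 1.76-fold at the median, and 4.23-fold for NXT1, the least well measured. For 22 of the 52 the 95% interval lay wholly within a 1.5-fold change in either direction. For the other 30 the interval reached past 1.5-fold, so the table does not bound them to less than that. If the coefficients were log2 values, the split would be 41 inside and 11 not, and the change needed at the median 1.48-fold. Among the most precise 20% of the table, the coefficient less the median of all genes, divided by its implied SE, had an SD of 1.46. Unchanged genes with fully counted error give 1, and whether real changes or uncounted error widened it was not tested.

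**Figure D1:**
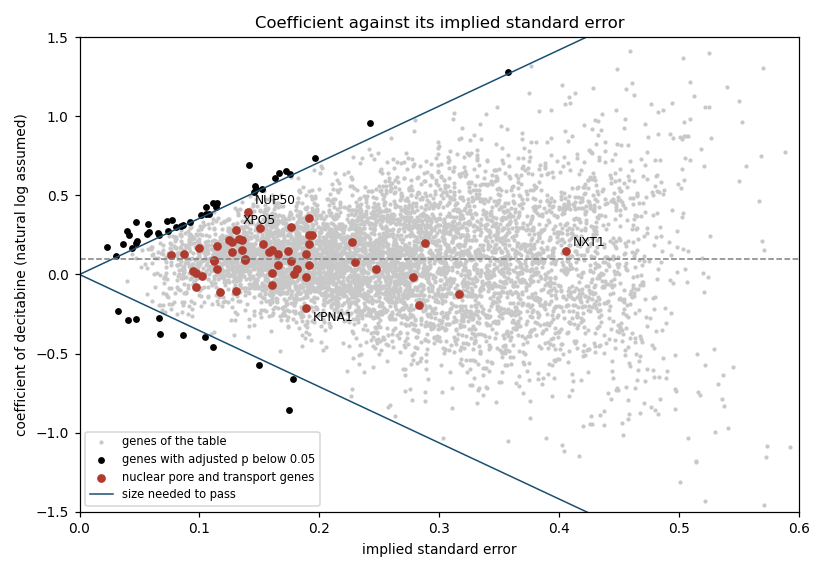
The vertical axis is the deposited coefficient of decitabine on translation efficiency and the horizontal axis its implied standard error, for the genes of the table with a standard error under 0.6. Red points are the 52 pore and transport genes, black points are genes with an adjusted p below 0.05, blue lines mark the size needed to pass (3.55 standard errors) and the dashed line is the median of all genes, 0.09; all red points lie between the blue lines.

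The 52 coefficients lay close together, from -0.21 for KPNA1 to 0.39 for NUP50, with a median of 0.12 and an SD among genes of 0.13, all from the authors' deposited table. Of these, 42 were above 0, or 80.8%, against 65% of all genes. The median of all genes was itself 0.09, a 1.1-fold shift, and against that level 28 of the 52 were above and 24 below. Between the quartiles of all genes, -0.08 and 0.26, lay 42 of the 52. Within the most precise 20% of the table, 26 of 31 members and 72.3% of all genes lay between them, so precision moves with this closeness, and its part was not tested. As the members differ in role, they are described in the order of the pore's architecture and then of the transport cycle.

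**Figure D2:**
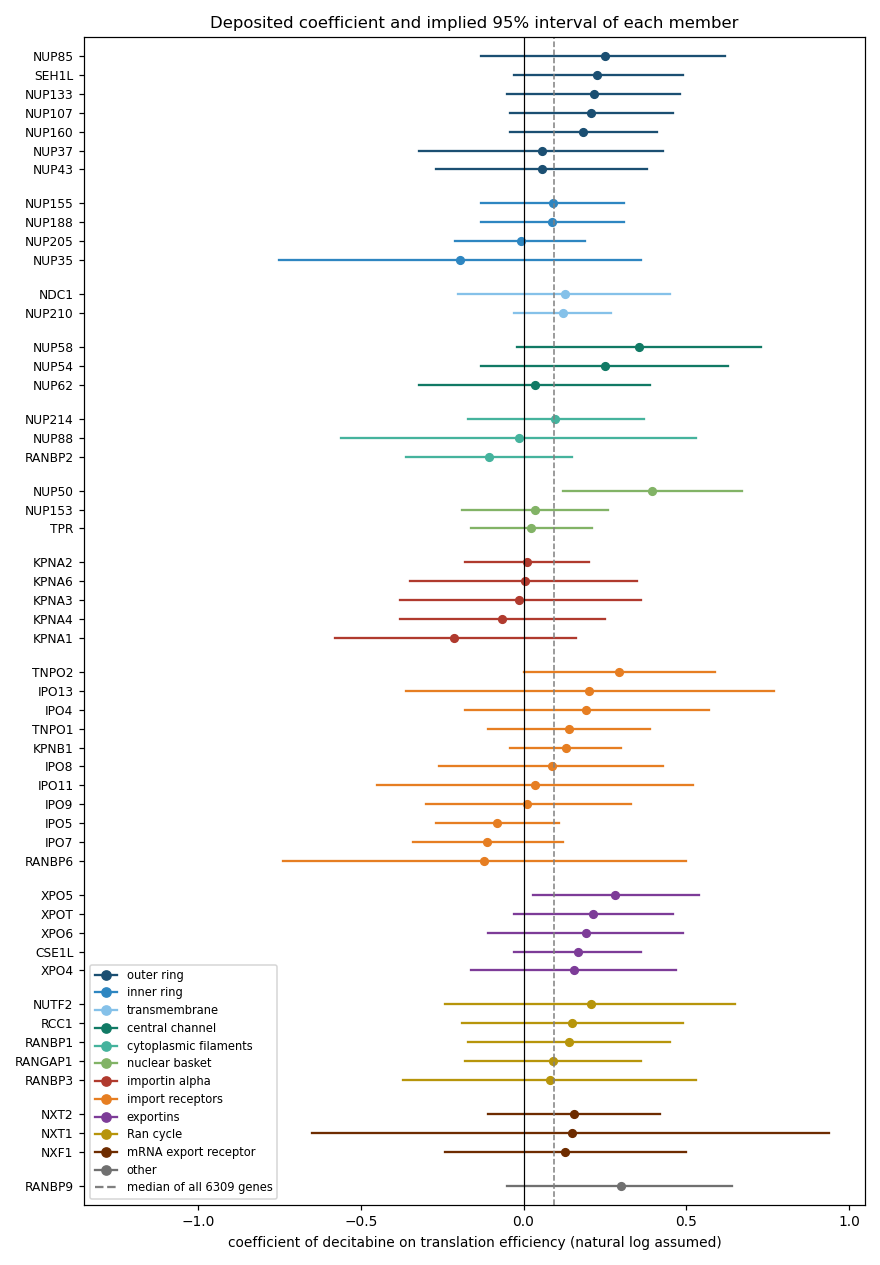
Each point is the deposited coefficient of a gene and each horizontal bar its implied 95% interval, coloured by role; the solid line marks 0 and the dashed line the median of all 6309 genes. The intervals of NUP50 and XPO5 lie above 0, all others include 0, and 51 of the 52 include the dashed line, NUP50 being the exception.

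The outer ring is built from the Y complex, the largest scaffold module of the pore. Of its 8 listed members 7 were in the table. There the authors' deposited table puts all 7 above 0, with a median of 0.21, and 5 above the median of all genes. NUP85, an arm of the Y, had the highest coefficient that the authors' deposited table gives in this ring, 0.25 ± 0.19 (implied SE, p = 0.193, adjusted p = 0.703). SEH1L, which also serves in a complex that signals amino acid supply, had the smallest p that the authors' deposited table lists for the ring, with 0.23 ± 0.13 (p = 0.0842, adjusted p = 0.567). NUP133 and NUP107, in the stem of the Y, and NUP160, in its other arm, had 0.22 ± 0.14, 0.21 ± 0.13 and 0.18 ± 0.11, and the authors' deposited table gives them adjusted p-values of 0.6, 0.596 and 0.597. NUP37 and NUP43, small propeller proteins at the edge of the complex, had 0.06 ± 0.19 and 0.06 ± 0.16. So 5 genes of the ring lay between 0.18 and 0.25, and NUP37 and NUP43 lay lower by about their own implied SE. AHCTF1, which seeds pore assembly on chromatin, was not analysed here.

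The inner ring lies between the outer rings and surrounds the passage. None of its 4 genes in the table was above the median of all genes, and the authors' deposited table gives a median coefficient of 0.04. NUP155 and NUP188 both had 0.09 ± 0.11 (implied SE), which is the level of the median gene. NUP205, a large scaffold protein related to NUP188, had -0.01 ± 0.10 with an interval from -0.21 to 0.19, so that a change beyond 1.21-fold upward lay outside it. NUP35, which ties the ring to the membrane, was the lowest nucleoporin of the authors' deposited table, with -0.20 ± 0.28 (p = 0.491, adjusted p = 0.878). Its interval from -0.75 to 0.36 took in the coefficient of every other member except NUP50. The medians of the outer and the inner ring differed by 0.17, or 1.18-fold. No test of this difference was made, and the standard error of a single gene does not measure its error. NUP93 was not analysed here.

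Of the transmembrane nucleoporins, which anchor the scaffold in the envelope, 2 of 5 listed genes were in the table. For NUP210 the authors' deposited table gives 0.12 ± 0.08 (implied SE, p = 0.11, adjusted p = 0.6), and for NDC1 it gives 0.13 ± 0.16 (p = 0.438, adjusted p = 0.849). Both lay within 0.04 of the median of all genes.

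NUP62, NUP54 and NUP58 form the FG-rich trimer that lines the central channel. Their coefficients were uneven, and the authors' deposited table lists 0.35 ± 0.19 (implied SE, p = 0.0641, adjusted p = 0.527) for NUP58, 0.25 ± 0.20 (adjusted p = 0.713) for NUP54 and 0.03 ± 0.18 (adjusted p = 0.97) for NUP62. The 3 intervals overlapped over most of their length. NUP98, an FG nucleoporin known from leukaemia fusion genes, was not analysed here.

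The cytoplasmic filaments carry the docking sites where exported complexes are taken apart. RANBP2, a giant protein with Ran-binding domains and SUMO ligase activity, stood in the authors' deposited table at -0.11 ± 0.13 (implied SE, p = 0.418, adjusted p = 0.841). NUP214, also a partner in leukaemia fusions, had 0.10 ± 0.14, and NUP88, its binding partner, had -0.01 ± 0.28, with adjusted p-values from the authors' deposited table of 0.874 and 0.992. RANBP2 shares long stretches of sequence with the RGPD gene family, and no source used here says how reads common to these copies were counted, so its value is uncertain.

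The nuclear basket held the highest coefficient of all 52 genes. NUP50, which helps to strip cargo from importin alpha and speeds its recycling, stood in the authors' deposited table at 0.39 ± 0.14 (implied SE, interval 0.12 to 0.67, p = 0.00568, adjusted p = 0.191). Read as a natural log, that is 1.48 times the DMSO level (1.12 to 1.96). If the coefficient were a log2 value, it would be 1.31 times. By p-value NUP50 ranked 187 of 6309 genes, and by coefficient it stood at the percentile 87. The other basket genes did not share that size. TPR, the coiled-coil protein that forms the basket's filaments, had 0.02 ± 0.09, and NUP153, its anchor at the pore, had 0.04 ± 0.11, with adjusted p-values from the authors' deposited table of 0.96 and 0.954. Their intervals ended at 0.21 and 0.26. NUP50 lies on chromosome 22 from 45163925 to 45188017 (hg38, whole-gene span) and has 4 pseudogenes of its name in RefSeq, which makes its value uncertain to the extent that reads were shared.

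Importin alpha proteins are the adaptors that read the classical nuclear localisation signal and link cargo to importin beta. All 5 in the table lay below the median of all genes, and the median that the authors' deposited table gives for them was -0.01. KPNA2 was the most precise of them, and the authors' deposited table puts it at 0.01 ± 0.10 (implied SE, interval -0.18 to 0.20, adjusted p = 0.986). That interval is 0.835 to 1.22 times the DMSO level. KPNA6 had 0.00 ± 0.18 and KPNA3 -0.01 ± 0.19, with adjusted p-values from the authors' deposited table of 0.995 and 0.99. KPNA4 had -0.07 ± 0.16. KPNA1 had the lowest coefficient that the authors' deposited table gives for any of the 52, with -0.21 ± 0.19 (p = 0.262, adjusted p = 0.764). Relative to the median of all genes KPNA1 stood at -0.31, with an unadjusted p of 0.105. For KPNA2, KPNA3, KPNA4 and KPNA6 the interval excluded a 1.5-fold change in either direction.

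The import receptors of the importin beta family carry cargo through the channel, directly or with an adaptor. Their 11 genes spread on both sides of the median gene, 5 above and 6 below, with a median of 0.09. KPNB1, importin beta itself, stood in the authors' deposited table at 0.13 ± 0.09 (implied SE, p = 0.122, adjusted p = 0.618), and its interval ran from 0.965 to 1.35 times the DMSO level. For TNPO2 and TNPO1, closely related receptors for RNA-binding proteins, the authors' deposited table gives 0.29 ± 0.15 (p = 0.0515, adjusted p = 0.485) and 0.14 ± 0.13 (adjusted p = 0.768). IPO4, a histone importer, had 0.19 ± 0.19, and IPO13, which works in both directions, had 0.20 ± 0.29. The lowest in the authors' deposited table were RANBP6 with -0.12 ± 0.32, IPO7 with -0.11 ± 0.12 (p = 0.346, adjusted p = 0.803) and IPO5 with -0.08 ± 0.10 (p = 0.412, adjusted p = 0.836). IPO5 and IPO7 import ribosomal proteins, among other cargo. Centred on the median of all genes of the authors' deposited table, IPO5 and IPO7 stood at -0.18 and -0.21, with unadjusted p-values of 0.073 and 0.081. IPO8, a relative of IPO7, had 0.09 ± 0.18, and IPO9 and IPO11 had 0.01 ± 0.16 and 0.04 ± 0.25. TNPO3 was not analysed here.

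Exportins bind their cargo together with Ran-GTP in the nucleus. All 5 in the table were above the median of all genes, with a median coefficient of 0.19, or 1.21-fold. XPO5, which exports precursors of microRNAs, stood in the authors' deposited table at 0.28 ± 0.13 (implied SE, interval 0.03 to 0.54, p = 0.0307, adjusted p = 0.41), or 1.33-fold, and centred on the median of all genes it had 0.19 and an unadjusted p of 0.152. For XPOT, the tRNA exporter, the authors' deposited table gives 0.22 ± 0.13 (p = 0.0878, adjusted p = 0.569), and for CSE1L, which returns importin alpha to the cytoplasm, 0.17 ± 0.10 (p = 0.0913, adjusted p = 0.574). XPO6, the exporter of actin with profilin, had 0.19 ± 0.15, and XPO4 had 0.15 ± 0.16, with adjusted p-values from the authors' deposited table of 0.715 and 0.791. The spread of the class, from 0.15 to 0.28, was about the implied SE of XPO5 alone. XPO5 lies on chromosome 6 from 43522334 to 43576038 (hg38, whole-gene span). XPO1, the main exporter of proteins with a leucine-rich signal, was not analysed here, nor was XPO7.

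The Ran cycle genes had coefficients from 0.08 to 0.21. Of the 5 in the table, 1 had an interval within 1.5-fold, so closeness to the median gene is not shown. RCC1, the chromatin-bound exchange factor that loads Ran with GTP, stood in the authors' deposited table at 0.15 ± 0.17 (implied SE, adjusted p = 0.827). RANGAP1, which triggers hydrolysis at the cytoplasmic face, had 0.09 ± 0.14, and RANBP1, its coactivator, had 0.14 ± 0.16, with adjusted p-values from the authors' deposited table of 0.885 and 0.818. NUTF2, the carrier that brings Ran-GDP back into the nucleus, had 0.21 ± 0.23, and RANBP3, a cofactor of export, had 0.08 ± 0.23, and the authors' deposited table gives them adjusted p-values of 0.807 and 0.946. All 5 were above 0, and 3 were above the median of all genes. RAN was not analysed here.

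NXF1 with its partner NXT1 carries bulk mRNA out of the nucleus without using the Ran gradient. For NXF1 the authors' deposited table gives 0.13 ± 0.19 (implied SE, adjusted p = 0.879), for NXT1 0.15 ± 0.41 (adjusted p = 0.945) and for the related NXT2 0.15 ± 0.14 (adjusted p = 0.758). The coefficients lay close together, but the interval of NXT1, from 0.523 to 2.57 times the DMSO level, bounds little. RANBP9, which the symbol rule takes although it is a scaffold of a ubiquitin ligase rather than a transport factor, stood in the authors' deposited table at 0.30 ± 0.18 (p = 0.0891, adjusted p = 0.569).

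The pore scaffold and the transport receptors were then set side by side. The scaffold (outer ring, inner ring and transmembrane genes) had a median of 0.12 over 13 genes of the authors' deposited table, and the receptors (importin alpha, import receptors and exportins) had 0.09 over 21. The difference was 0.03, or 1.03-fold, and precision-weighted means of 0.12 and 0.08 gave 0.04. Of the scaffold genes 11 were above 0 and 7 above the median of all genes; of the receptors 15 and 10 were. Genes are not replicates of a treatment, so this difference has no test. It was smaller than the implied SE of the best measured gene of either group, but that SE is not the error of a difference of medians. The classes within each group stood further apart than the groups did. Exportins and importin alpha differed by 0.21 in medians, or 1.23-fold, a comparison not planned beforehand. The coefficients of the 5 exportins and 5 importin alpha genes measured did not overlap. The lowest exportin was XPO4 with 0.15 and the highest importin alpha KPNA2 with 0.01. Their intervals overlapped for every pair across these classes, as for XPO5 (0.03 to 0.54) and KPNA2 (-0.18 to 0.20), and no test of the difference was made. Lack of overlap was not particular to this pair. Importin alpha also lay wholly below the outer ring, lowest 0.06, and the Ran cycle genes, lowest 0.08. The same held against the nuclear basket, central channel, transmembrane and mRNA export receptor genes, with lowest coefficients of 0.02, 0.03, 0.12 and 0.13. Exportins also lay wholly above the inner ring, cytoplasmic filament and transmembrane genes, with highest coefficients of 0.09, 0.10 and 0.13. The direction of the comparison depended on which receptors entered it: without importin alpha the scaffold lay at -0.03 relative to the receptors, and against exportins alone at -0.07.

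**Figure D3:**
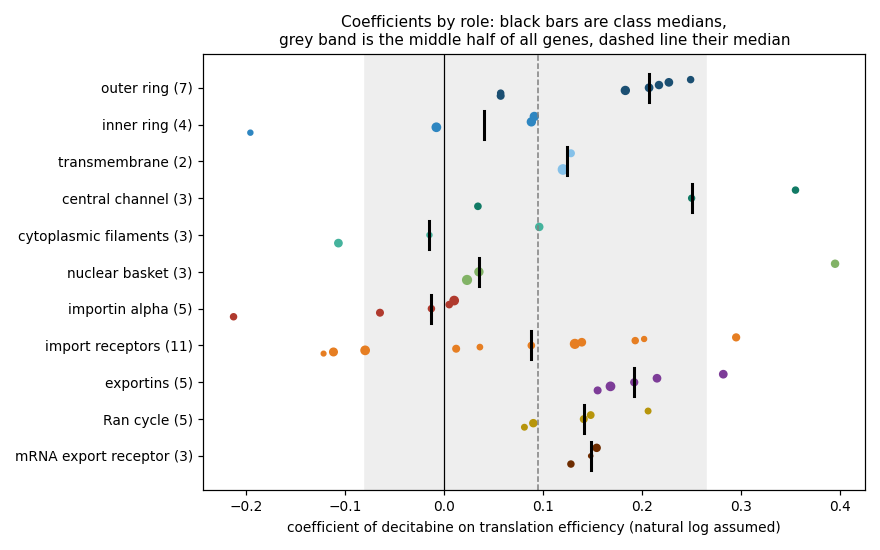
Each point is the deposited coefficient of a gene, with larger points for smaller implied standard errors, in rows by role with the number of genes in brackets; black bars are class medians, the grey band runs between the quartiles of all genes (-0.08 to 0.26) and the dashed line is their median. Importin alpha and inner ring genes all lie left of the dashed line. Exportins, transmembrane and mRNA export receptor genes all lie right of it. The outer ring, central channel, cytoplasmic filament, basket, import receptor and Ran cycle rows have points on both sides. RANBP9 is not drawn here.

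The first bases of each mRNA were described as well, since several transport genes begin with the letters known from ribosomal protein mRNAs, a terminal oligopyrimidine (TOP) tract through which their translation is controlled. The tract was searched as a C at the annotated first base followed by at least 4 pyrimidines, on the transcribed strand, at any start that RefSeq (GRCh38.p14) gives for the gene. Starts were matched by symbol for 48 of the 52 genes, and annotated starts can differ from those used in HL-60. Such a tract was found for 5 of the 48, or 10.4%, against 7.79% of 5145 genes of the table, 5.14% of all 27305 genes with an annotated start and 69.4% of 49 ribosomal protein genes. Shown are the 30 bases around the start, 15 on each side, for these 5, for 2 ribosomal protein genes as a reference, and for 3 genes named above that lack the tract. Capitals mark the first transcribed base and any unbroken run of pyrimidines that begins there.
NUP133 (chr1:229508327-229508356, minus strand): atcatcgcgcgccatCTCTTCCCTTaggtg
RCC1 (chr1:28506028-28506057, plus strand): tcgcgttttctctctCCTTTTTggagacag
IPO7 (chr11:9384637-9384666, plus strand): ttggcgcttctctttCCTTTCgcgccggtt
RANGAP1 (chr22:41302355-41302384, minus strand): ctttcctgccgccccCTTCCCgcgggcccg
NDC1 (chr1:53838282-53838311, minus strand): gggcgggcgcacggtCTCCTgtacgcccta
RPL10 (chrX:154398362-154398391, plus strand): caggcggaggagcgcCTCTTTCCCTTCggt
RPS3 (chr11:75399503-75399532, plus strand): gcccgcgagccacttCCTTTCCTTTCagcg
XPO5 (chr6:43576024-43576053, minus strand): tggcgggccgggcgcGtgcgcagcgccggc
KPNA2 (chr17:68035720-68035749, plus strand): ccggctgcacgagccAcacggtctttgagc
XPOT (chr12:64404377-64404406, plus strand): cgggctgccgcccgcActctccaagagact

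The pore and transport genes with such letters did not sit low. NUP133, with the longest tract, 10 pyrimidines, stood in the authors' deposited table at 0.22, RCC1 at 0.15, NDC1 at 0.13 and RANGAP1 at 0.09, and IPO7 alone of the 5, with -0.11, was below 0. Their median was 0.13, against 0.12 for the 43 without the tract. RPL10 and RPS3, shown for reference and named after the values were seen, fell, and the authors' deposited table gives them -0.38 ± 0.09 (implied SE, adjusted p = 0.00308) and -0.27 ± 0.07 (adjusted p = 0.0104). Both passed as lower, as 0.174% of all genes did, and both lay below the median of ribosomal protein genes with the tract, -0.15. RPS12, another of these with the tract, stood at 0.17. RCC1 and RANGAP1 have further annotated starts without the tract. A match of these letters is a description and not a tested regulatory site. In ribosomal protein genes the median was -0.15 for the 34 with the tract and -0.14 for the 15 without it. An annotated start can miss a tract that is used, so this comparison cannot separate genes with and without one. Over the other genes the median was 0.05 with the tract and 0.10 without, and the part of the tract was not tested.

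**Figure D4:**
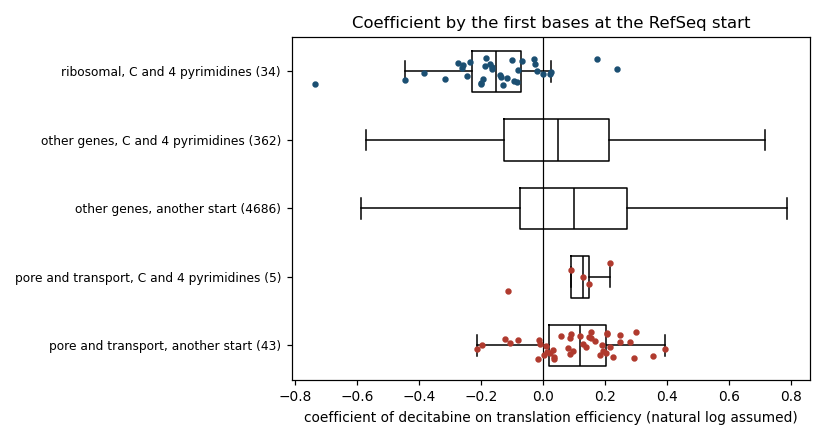
Boxes show the quartiles and median of the deposited coefficient, with whiskers to 1.5 times the interquartile range, for genes grouped by the first bases at their annotated start; points are single genes in the rows of under 100 genes, red for pore and transport genes. The 34 ribosomal genes with a C and 4 pyrimidines lie mostly below 0. The 15 ribosomal genes with another start, median -0.14, are not drawn. The 5 pore and transport genes with a C and 4 pyrimidines lie at -0.11 to 0.22, within the range of the 43 with another start.

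Shared sequence limits some of these values. In RefSeq 15 of the 52 genes have pseudogenes of their own name, NUTF2 with 6, NUP50 with 4, and KPNA2, NUP210, TNPO1 and XPOT with 3 each, and no source used here says how the authors' counting divided such reads. Among the importin alpha genes, KPNA3 and KPNA4 are also close relatives of each other.

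Genes that work beside these, but that the symbol rule leaves out, were counted from fixed lists. None of 36 such genes in the authors' deposited table passed, 13 lay above the median of all genes and 23 below, and 5 had an unadjusted p below 0.05, beside 0.808% and 10.3% of all genes at these thresholds, so neither count is read as a result. The 5 other pore proteins had a median of -0.09, with 2 above and 3 below 0. Of them SEC13, a Y complex subunit shared with vesicle coats, stood in the authors' deposited table at 0.21 ± 0.15 (implied SE, adjusted p = 0.663), and CETN2, a centrin, at -1.61 ± 0.66 (adjusted p = 0.297). The 17 mRNA export factors had a median of 0.02, and 13 of them were below the median of all genes. ALYREF, which hands mRNA to NXF1, stood in the authors' deposited table at 0.32 ± 0.11 (p = 0.00273, adjusted p = 0.15), and THOC6 at 0.56 ± 0.26 (adjusted p = 0.406). Of the 17, 9 were above and 8 below 0. The lowest were THOC7 at -0.30 ± 0.22, NCBP3 at -0.28 ± 0.24 and FYTTD1 at -0.24 ± 0.23, named after their values were seen, with no call. The 9 genes of the lamina and nuclear envelope had a median of 0.05, with 5 above and 4 below 0, and 5 below the median of all genes. Of them LEMD2, a protein of the inner membrane, stood in the authors' deposited table at 0.95 ± 0.33 (p = 0.00447, adjusted p = 0.176) and LMNB1, which encodes a B-type lamin, at 0.21 ± 0.10 (p = 0.0285, adjusted p = 0.402). The lowest of them in the authors' deposited table were LEMD3 at -0.28 ± 0.23, SUN2 at -0.18 ± 0.12 and EMD at -0.18 ± 0.25, named after their values were seen, with no call. The 5 transport adaptors and Ran helpers had a median of 0.19, with 3 above and 2 below 0, and a precision-weighted mean of 0.08. Their highest in the authors' deposited table was SENP1, a SUMO protease, with 0.52 ± 0.31 (adjusted p = 0.584). Their lowest were NMD3 at -0.11 ± 0.16 and SNUPN at -0.11 ± 0.37, named after their values were seen, with no call.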

How the data were processed

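Reads were handled with Bowtie2, SAMtools 1.11 and UMI-tools 1.1.1 on build hg38, per the submitters' processing notes; no source used here gives the model program, count filter or library scaling. Per the file headers, the authors' deposited table holds a coefficient of the drug, taken here as a natural log, and its two-sided p-value, adjusted p-value and q-value. The deposited adjusted p-value equalled a Benjamini-Hochberg adjustment over 6309 genes (largest difference 6.61e-14). Implied SEs were the coefficient divided by the z of its p-value (Python 3.11.15, SciPy 1.17.1, NumPy 2.4.6); the steps were tested on simulated data. The planned count model and the planned protein comparison could not be made from these values. Members, role classes and lists were chosen with earlier results of these data known. Named were members with an unadjusted p below 0.05, up to 4 per class with the smallest p, those with the lowest and highest coefficients, 12 fixed transport genes and up to 3 genes per further list; the remaining members were named after their values were seen, and the start sequences were added then too. Alternatives were other thresholds, adjustments, centrings, precision filters and class definitions. All 52 members matched RefSeq (GRCh38.p14) by symbol.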

Additional observations from a re-analysis of the deposited data

How the results depend on the processing

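The count of 0 members past the threshold was 0 in each of the 8 alternatives run. For a threshold of 0.01, the Benjamini-Yekutieli adjustment and a minimum of 1.2-fold this was by construction, as each is stricter. The others were a threshold of 0.1, the q-value, both centrings and removal of the 25% least precise genes. The 2 members with an unadjusted p below 0.05 became 1, NUP50, after either centring, an alternative chosen after seeing the data, since centring takes 0.09 from every coefficient. The difference between scaffold and receptors, 0.03, turned to -0.027 without importin alpha and to -0.072 with exportins alone, as the receptor median went from 0.09 to 0.15 and 0.19; the latter leaves out the import receptors too. It was 0.005 to 0.040 in the other alternatives. The 22 members whose interval lay within 1.5-fold became 41 with the coefficients read as log2, by construction. Class medians moved by less than the median implied SE of their class in every alternative. For the centrings this follows from taking 0.09 from every gene. Centring on the median turned the inner ring from 0.04 to -0.055 and the nuclear basket from 0.04 to -0.060. It turned the import receptors, and the transport receptors as a group, from 0.09 to -0.007.

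Centring on the median changed the sign of 14 members and centring on the precision-weighted mean of 12; no member was called either way. The values after these centrings, in that order, were -0.059 and -0.054 for IPO11, -0.007 and -0.002 for IPO8, -0.083 and -0.077 for IPO9, -0.085 and -0.079 for KPNA2, -0.090 and -0.085 for KPNA6, -0.060 and -0.055 for NUP153, -0.007 and -0.002 for NUP188, -0.038 and -0.033 for NUP37 and for NUP43, -0.061 and -0.056 for NUP62, -0.014 and -0.009 for RANBP3, and -0.072 and -0.066 for TPR; NUP155 and RANGAP1 had -0.004 and -0.005 after the first only. No paired analysis was possible because the table holds no value per library, and leaving out each replicate in turn could not be run for the same reason.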
